A study of Mus musculus with 2 samples.

Results

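The regions described are MeDIP-seq peaks in the pericentromere-proximal ends of the mouse autosomes, the first 2 Mb of assembled sequence after the centromeric gap. A peak was included when its midpoint lay from 3000000 to 5000000 on chromosomes 1 to 19 of the build mm9. This rule gave 2296 of the 166438 peaks of the chow library and 2375 of the 175773 peaks of the high-fat library. The libraries come from epididymal white adipose tissue, a visceral fat depot, of male C57BL/6J mice, an inbred strain. The mice were put on standard chow (STD) or on a high-fat diet with 60% of energy from fat (HFD) at 4 weeks of age and stayed on it for 5 months. Each diet has 1 library, and the number of mice behind a library is not given in the sources used here. Diets are therefore compared as a pair of unreplicated lists, without p-values. Values in parentheses after an estimate are exact 95% intervals. They reflect counting error alone and count neighbouring peaks as independent.

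MeDIP-seq captures DNA fragments that carry 5-methylcytosine with an antibody, and a peak marks a place where such fragments piled up. Mouse chromosomes have their centromere close to the proximal end. Long arrays of satellite repeats lie there, the minor satellite at the centromere itself and the major satellite beside it. These arrays are packed as heterochromatin and are heavily methylated in somatic cells, but they are missing from the assembly and stand in it as a gap. The assembled sequence next to the gap can carry satellite fragments and duplicated blocks, where short reads may fit several places. How the authors treated such reads is not given in the sources used here, and its part in the peaks below was not tested. The lists hold positions without counts or scores, so sequencing depth is unknown and the absence of a peak does not show absence of methylation. Densities of an interval divide by its full length. How much of each interval is assembled or can be mapped was not tested on any chromosome, so sparse or empty stretches may hold sequence without usable reads.

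The peaks were denser in the first 2 Mb than in the 4 Mb that follow, by a small margin in both libraries. The STD library had 60.4 peaks per Mb (58.0 to 62.9) from 3 to 5 Mb and 55.4 (53.8 to 57.1) from 5 to 9 Mb. The HFD library had 62.5 (60.01 to 65.1) and 57.6 (55.9 to 59.3). The ratio of the densities was 1.09 with STD (1.04 to 1.15) and 1.09 with HFD (1.03 to 1.14). Both intervals of the chromosome were thinner than the autosomes as a whole, where the span from first to last peak held on average 68.5 (STD) and 72.4 (HFD) per Mb. For the first 1 Mb alone the ratio was 1.03 with STD and 1.02 with HFD. The margin was not a drop at 5 Mb. Summed over the autosomes, the 100 kb before and after 5 Mb held 140 and 142 STD peaks, and 154 and 153 HFD peaks. Sparse stretches lay farther along: each 100 kb from 4100 to 4900 kb after the gap border held 56 to 96 STD and 58 to 89 HFD peaks.

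Single chromosomes differed far more than the pooled value. The density from 3 to 5 Mb had a standard deviation over the 19 autosomes of 26.3 peaks per Mb with STD and 28.6 with HFD. The ratio to 5 to 9 Mb ran from 0.0769 to 2.31 with STD and from 0.0702 to 2.01 with HFD. It was above 1 on 11 autosomes and below 1 on 7 with STD, and it was exactly 1 on chromosome 6. With HFD it was above 1 on 10 and below 1 on 9. The interval of the ratio lay above 1 on 8 autosomes with STD and on 7 with HFD, and below 1 on 4 in each library. Against the median of the 2 Mb windows of the same chromosome, the first window held more peaks on 8 autosomes with STD and on 7 with HFD. It held fewer on 11 and 12. The proximal ends are thus not uniformly dense or sparse.

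**Figure D1:**
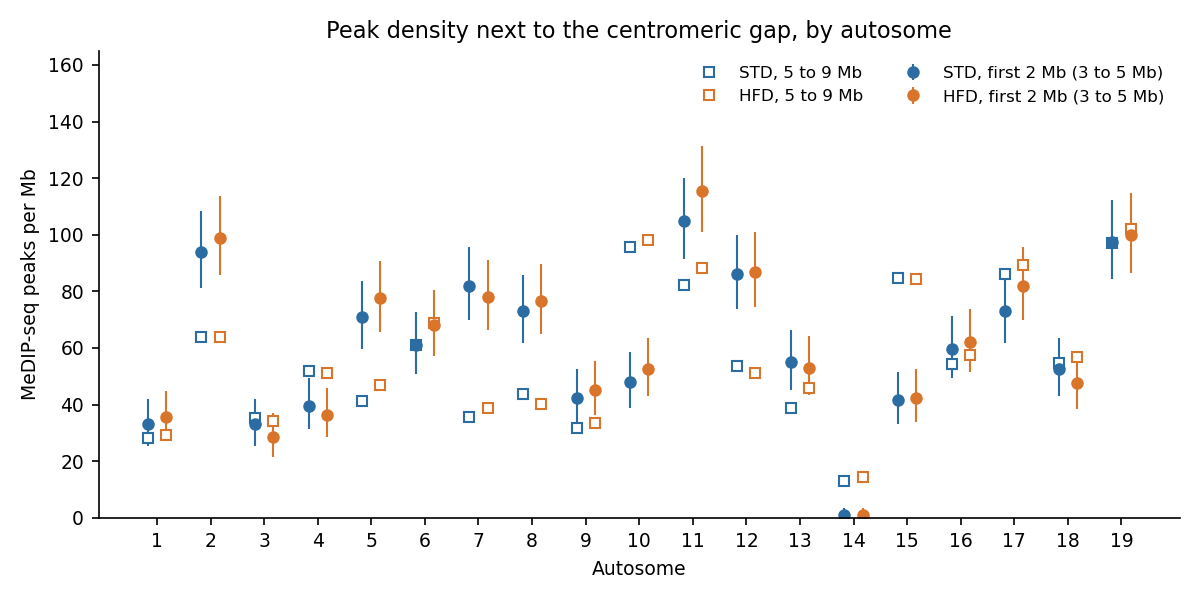
Peaks per Mb on each autosome for the STD (blue) and HFD (orange) libraries. Filled circles give the first 2 Mb after the gap with exact 95% Poisson intervals, and open squares give 5 to 9 Mb of the same chromosome. Chromosome 11 stands highest at 105 (STD) and 115.5 (HFD) peaks per Mb, chromosome 14 lowest at 1 in both, and chromosomes 10 and 15 lie well below their open squares.

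Chromosome 11 had the densest proximal end. It carried 210 STD and 231 HFD peaks in 2 Mb, or 105 (91.3 to 120.2) and 115.5 (101.1 to 131) peaks per Mb. From 5 to 9 Mb it carried 82.25 STD and 88.25 HFD peaks per Mb. Chromosome 19 followed with 195 STD and 200 HFD peaks, and its density hardly differed from that of 5 to 9 Mb (ratios 1.01 and 0.980). Chromosome 2 carried 188 and 198 peaks, 1.47 and 1.55 times the density of its next 4 Mb. Chromosome 12 carried 172 and 174, at 1.60 and 1.71 times. The steepest drop from the first 2 Mb to the next 4 Mb was on chromosome 7, from 82 to 35.5 STD peaks per Mb and from 78 to 38.75 HFD peaks per Mb. Chromosomes 5 and 8 were also denser in the first 2 Mb than in the next 4 Mb, with ratios of 1.72 and 1.67 with STD and of 1.66 and 1.90 with HFD. Their first 2 Mb nevertheless held fewer peaks than the median 2 Mb window of the same chromosome. With STD these were 142 against 154.5 on chromosome 5 and 146 against 148.5 on chromosome 8. With HFD they were 155 against 170.5 and 153 against 154.

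The sparsest proximal end was that of chromosome 14, which held 2 peaks in each library. The same places were marked with both diets. The STD peak from 3651361 to 3651828 (468 bp) overlapped an HFD peak of 450 bp, and the STD peak from 4366092 to 4366430 (339 bp) overlapped an HFD peak of 302 bp. The first of these peaks lay 651 kb from the gap border, and the stretch between both was free of peaks for 714 kb. The ratio to 5 to 9 Mb rests on these 2 peaks and was 0.0769 (0.00908 to 0.292) with STD and 0.0702 (0.00830 to 0.265) with HFD. Of the 61 complete 2 Mb windows of chromosome 14, 59 held more peaks than this one and 1 held fewer, in both libraries. How much of these 2 Mb is assembled or can be mapped was not tested. With chromosome 14 left out, the pooled ratio to 5 to 9 Mb was 1.10 in both libraries.

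Chromosomes 3, 1 and 4 came next in sparseness. Chromosome 3 held 66 STD and 57 HFD peaks, chromosome 1 held 66 and 71, and chromosome 4 held 79 and 73. On chromosomes 10 and 15 the proximal end was sparse against the next 4 Mb. Chromosome 10 had 48 STD and 52.5 HFD peaks per Mb, against 95.75 and 98 from 5 to 9 Mb. Chromosome 15 had 41.5 and 42.5, against 84.75 and 84.25. Against the complete 2 Mb windows of the chromosome they stood out less. In both libraries 44 of 63 windows on chromosome 10 and 34 of 50 on chromosome 15 held more peaks than the first. On chromosome 9, whose first 2 Mb was denser than its next 4 Mb, 47 (STD) and 48 (HFD) of 60 windows did. On 18 of 19 autosomes both libraries lay on the same side of a ratio of 1, counting exactly 1 as not above it, and chromosome 19 was the exception.

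Gene names can be given by neighbourhood only, since the RefSeq gene table used here follows GRCm38.p6 and the peaks mm9, so no peak was placed at a gene. The following are, for the 4 densest and 4 sparsest proximal ends, named protein-coding genes closest to the centromeric end in that table. These chromosomes were chosen with their densities known. Chromosome 11 begins with Sfi1, which encodes a centrosomal protein, then Eif4enif1, a transporter of a translation initiation factor, and Drg1. Chromosome 19 begins with the helicase gene Ighmbp2, the mitochondrial ribosome gene Mrpl21 and Cpt1a, the enzyme that controls entry of fatty acids into mitochondrial oxidation. Chromosome 2 begins with Fam171a1 and Nmt2, an N-myristoyltransferase, and chromosome 12 with Rab10, a small GTPase of vesicle transport, and Kif3c, a kinesin motor. Among the sparse ends, chromosome 3 begins with the nuclear receptor gene Hnf4g and with Zfhx4. Chromosome 1 begins with Xkr4, the photoreceptor gene Rp1 and Sox17, a transcription factor of endoderm. Chromosome 4 begins with Vmn1r2 and Vmn1r3, vomeronasal receptor genes, and chromosome 14 with D830030K20Rik.

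Along the 2 Mb, the step next to the gap held fewer peaks than most, and its peaks were wide. In the first 100 kb the 19 autosomes together held 93 STD and 92 HFD peaks, against means of 116 and 120 per 100 kb step from 3.1 to 5 Mb. The density in the first 100 kb was 0.802 times (0.645 to 0.987) that of 3.1 to 5 Mb with STD and 0.766 times (0.615 to 0.943) with HFD. Its median width was 377 bp with STD (interval 358 to 404) and 355.5 bp with HFD (335 to 385). From 3.1 to 5 Mb the medians were 329 bp (325 to 334) and 321 bp (317 to 324). Among the 59 further 100 kb steps up to 9 Mb, no STD step and 1 HFD step reached the median width of the first. In number of peaks the first step was less unusual: 13 of the 59 held fewer and 46 at least as many, in both libraries. The number of peaks was highest from 1.8 to 1.9 Mb after the border, within the 2 Mb, at 160 STD and 170 HFD peaks.

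**Figure D2:**
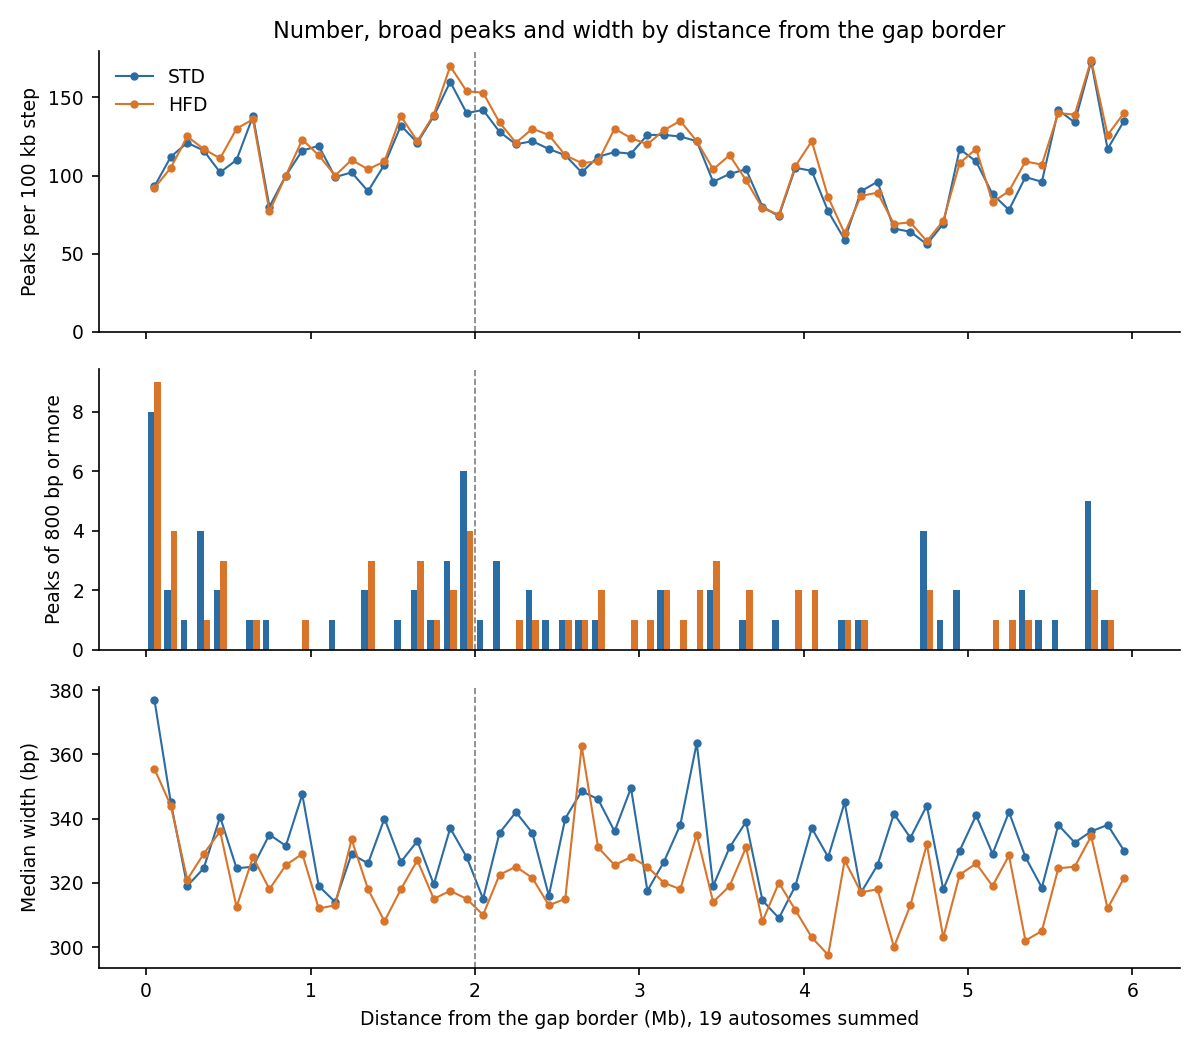
Number of peaks (top), number of peaks of at least 800 bp (middle) and median peak width in bp (bottom) in steps of 100 kb from the gap border, summed over 19 autosomes, for STD (blue) and HFD (orange). The dashed line marks the end of the first 2 Mb. The first step holds 8 STD and 9 HFD broad peaks, more than any other step up to 6 Mb, and its median widths of 377 and 355.5 bp are at or near the top.

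Broad peaks, taken as peaks of at least 800 bp, made up a larger share of the peaks at the border than farther along. In the first 100 kb they made up 8 of 93 STD peaks (8.60%, 3.79 to 16.2) and 9 of 92 HFD peaks (9.78%, 4.57 to 17.8). Over all autosomal peaks, 1.15% (STD) and 0.957% (HFD) were this broad. From 3.1 to 5 Mb the shares were 1.23% (0.809 to 1.78) and 1.01% (0.640 to 1.51), close to that background. From 5 to 9 Mb they were 0.831% and 0.731%. No other 100 kb step up to 9 Mb held more than 6 STD or 4 HFD broad peaks, and the median step held 1 in each library. The whole 3 to 5 Mb held 35 STD and 32 HFD broad peaks, 1.52% and 1.35% of its peaks, and these lay on 16 and 12 autosomes.

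The broad border peaks lay on few chromosomes and occurred with both diets. Chromosome 4 had the widest, with 1864 bp from 3016560 to 3018423 (STD) and 1837 bp from 3016626 to 3018462 (HFD). Only 2 autosomal STD peaks and 4 autosomal HFD peaks were wider. Chromosome 9 followed with 1663 bp from 3000014 to 3001676 (STD) and 1642 bp from 3000012 to 3001653 (HFD). This peak abuts the gap, starting 0.013 kb (STD) and 0.011 kb (HFD) after its border. Chromosome 11 had 1403 bp from 3001050 to 3002452 (STD) and 1379 bp from 3001072 to 3002450 (HFD). In these 3 places the widths with both diets differed by 21 to 27 bp.

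Of the remaining broad border peaks, 2 more lay on chromosome 9 and 2 more on chromosome 11. On chromosome 9 they were the STD peaks from 3034417 to 3035295 (879 bp, HFD partner 828 bp) and from 3037014 to 3038262 (1249 bp, HFD partner 1323 bp). On chromosome 11 they were the STD peaks from 3050141 to 3051059 (919 bp, HFD partner 946 bp) and from 3092745 to 3093909 (1165 bp, HFD partner 1167 bp). Chromosome 5 had an STD peak (3099231 to 3100031) that just passed the 800 bp limit at 801 bp, and the HFD peak over it measured 1113 bp. On chromosome 18 the HFD peak (3005609 to 3006487) measured 879 bp, and its STD partner, at 749 bp, fell below the limit. Each of the 8 STD broad border peaks was therefore met by a broad HFD peak, and 8 of the 9 HFD ones by a broad STD peak. From 3.1 to 5 Mb this held for 12 of 27 STD and 12 of 23 HFD broad peaks, and over all autosomes for 899 of 1896 and 899 of 1671.

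**Figure D3:**
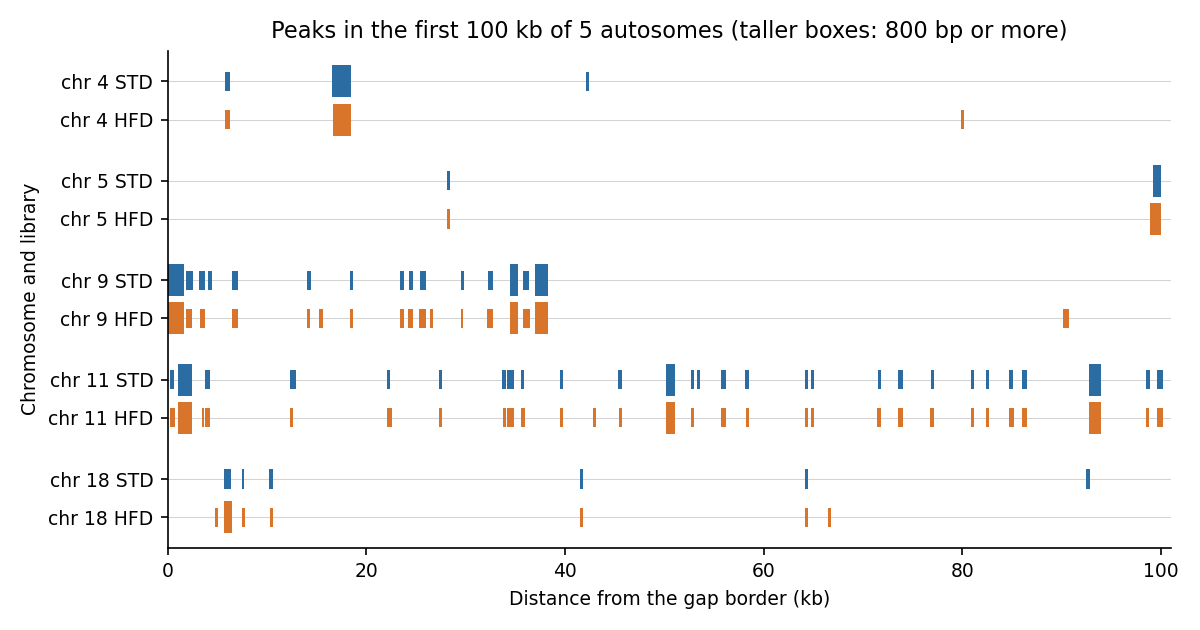
Peaks in the first 100 kb after the gap border of the 5 autosomes with a broad peak there, drawn to scale in kb from the border, with STD (blue) above HFD (orange) for each chromosome. Taller boxes are peaks of at least 800 bp. On chromosome 9 all 15 STD and 16 of 17 HFD peaks lie in the first 40 kb, whereas on chromosome 11 the 28 STD and 29 HFD peaks run through the whole 100 kb.

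The first 100 kb of chromosome 11 had more bases under peaks than any other 100 kb of the autosomes. It held 28 STD peaks that covered 13553 bp (13.6% of the stretch) and 29 HFD peaks that covered 13585 bp (also 13.6%). This was the highest covered length among 22364 STD and 22464 HFD bins of 100 kb with a peak, and the next bins covered 11851 and 12282 bp. In number of peaks it shared the highest place, as 5 STD bins held 28 peaks and 4 HFD bins held 29. The gaps between neighbouring peaks had a median of 2.08 kb (STD) and 2.49 kb (HFD). Beyond the first 100 kb, chromosome 11 peaks of the proximal end had a median width of 326 bp (STD) and 326.5 bp (HFD), against 377.5 and 370 bp within it.

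On chromosome 9 the border peaks formed a compact block. Its first 40 kb held 15 STD peaks, which covered 9496 bp or 23.7% of those 40 kb, and 16 HFD peaks, which covered 9698 bp or 24.2%. Their median width was 548 bp with STD and 519 bp with HFD, and peaks of chromosome 9 from 3.1 to 5 Mb had medians of 337 and 312 bp. The block ended at 3038262 with STD and at 3038260 with HFD. The next STD peak came 88.7 kb later, from 3126977 to 3127495. The next HFD peak came 51.9 kb later, from 3090164 to 3090718 (555 bp), and the STD peak nearest to it was 36.3 kb away. Counted over its full first 100 kb, chromosome 9 ranked 40th by covered length in the STD list and 12th in the HFD list.

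Chromosomes 9 and 11 together supplied 43 of the 93 STD and 46 of the 92 HFD peaks of the first 100 kb, and 6 broad peaks in each library. On the other 17 autosomes the border held few peaks, at 29.4 (STD) and 27.1 (HFD) per Mb of full length in the first 100 kb. There, 2 of 50 STD peaks (4.00%, 0.488 to 13.7) and 3 of 46 HFD peaks (6.52%, 1.37 to 17.9) were broad. The STD interval includes the autosomal 1.15%, whereas the HFD interval starts above 0.957%. The median width there was 363.5 bp with STD and 330 bp with HFD. The broad border peaks outside chromosomes 9 and 11 are thus too few to separate from the background with STD.

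The distance from the border to the first peak varied from 0.013 to 651 kb with STD and from 0.011 to 651 kb with HFD, with medians of 21.8 and 20.6 kb. A peak began within 10 kb of the border on 5 autosomes with STD and on 6 with HFD. Chromosomes 4, 9, 11 and 18 were among these in both libraries. On chromosome 1 the first STD peak, from 3000510 to 3000907, had no counterpart in the first HFD peak, which began at 3010974. On chromosome 6 the first HFD peak, from 3002334 to 3002638, was 305 bp wide, and the first STD peak came at 3132627. In all, the first peaks of both libraries overlapped on 12 of 19 autosomes. Chromosomes 8, 14 and 15 had no peak in the first 100 kb with either diet, and chromosome 6 had none there with STD.

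At the other end of the 2 Mb, chromosome 7 carried a run of broad peaks. From 4.9 to 5 Mb it held 16 peaks in each library, of which 4 STD and 3 HFD peaks were broad. Only 2 autosomal bins of 100 kb in each list held 4 or more broad peaks, and this was 1 of them in the STD list. The widest, from 4981216 to 4982818, spanned 1603 bp with STD. It overlapped 2 HFD peaks, the wider of which ran from 4981706 to 4982929 (1224 bp). The HFD peak from 4944891 to 4946108 (1218 bp) overlapped 2 STD peaks, the wider of them 816 bp, and the STD peak from 4959755 to 4960655 (901 bp) matched an HFD peak of 892 bp. In the interior of the 2 Mb, chromosome 8 had an STD peak from 3495654 to 3496686 (1033 bp) with an HFD partner of 1228 bp. Chromosome 19 had an HFD peak from 3159000 to 3160137 (1138 bp) with an STD partner of 936 bp. Some other interior peaks among the 10 widest of a list had much narrower partners. The HFD peak on chromosome 13 from 3137932 to 3139082 (1151 bp) overlapped 2 STD peaks, and the one sharing most bases measured 403 bp. STD peaks of 1064 bp on chromosome 16 and 1072 bp on chromosome 17 each overlapped 2 HFD peaks. Those sharing most bases measured 555 and 744 bp. On chromosome 6 an STD peak of 1059 bp had an HFD partner of 1001 bp.

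Apart from the border, peak widths were ordinary. The median width from 3 to 5 Mb was 331 bp with STD (327 to 335) and 322 bp with HFD (318 to 326). From 5 to 9 Mb it was 333 bp (330 to 336) and 320 bp (317 to 323), and over all autosomal peaks 333 and 321 bp. By chromosome the median was wider from 3 to 5 Mb than from 5 to 9 Mb on 8 autosomes and narrower on 11 with STD, and wider on 12 and narrower on 6 with HFD. Leaving out chromosome 14, the STD medians ranged from 320.5 to 350 bp and the HFD medians from 302 to 344 bp. The lists have different narrowest peaks, 263 bp with STD and 255 bp with HFD. Measured above these minima, the medians from 3 to 5 Mb were 68 and 67 bp.

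The diets were compared first by the number of peaks. The proximal ends held 1.03 times as many HFD as STD peaks (0.976 to 1.096), 5 to 9 Mb held 1.04 times as many (0.996 to 1.08), and all autosomes 1.06 times (1.05 to 1.06). The interval for the proximal ends includes both no difference and the autosomal value. More HFD than STD peaks were found on 13 autosomes, fewer on 5, and equal numbers on chromosome 14. The lowest ratio was 0.864 on chromosome 3 (0.595 to 1.25) and the highest 1.12 on chromosome 17 (0.893 to 1.41). The interval included 1 on each of the 19 autosomes. Broad peaks numbered 35 with STD and 32 with HFD, a ratio of 0.914 (0.548 to 1.52), and from 5 to 9 Mb they also numbered 35 and 32. On all autosomes the ratio was 0.881 (0.825 to 0.942).

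The diets were compared next by shared position. A peak had a partner when a peak of the other list overlapped it by at least 1 bp. From 3 to 5 Mb, 1656 STD peaks (72.1%, 70.2 to 74.0) and 1660 HFD peaks (69.9%, 68.0 to 71.7) had a partner. The background was 73.6% of all autosomal STD peaks and 69.8% of all autosomal HFD peaks, and 5 to 9 Mb gave 72.4% (71.0 to 73.7) and 69.8% (68.4 to 71.1). Shared peaks also lay in nearly the same place. Of the 1631 pairs with a single partner on each side, the midpoints were a median of 23 bp apart, and HFD peaks differed in width by a median of -8 bp (quartiles -46 and 33). Over all autosomal pairs these medians were 24 and -8 bp. The lists also differ in their narrowest peaks, 263 bp with STD and 255 bp with HFD, and the part of this in the width difference was not tested. In the first 100 kb the midpoints of 76 such pairs were a median of 14.2 bp apart.

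**Figure D4:**
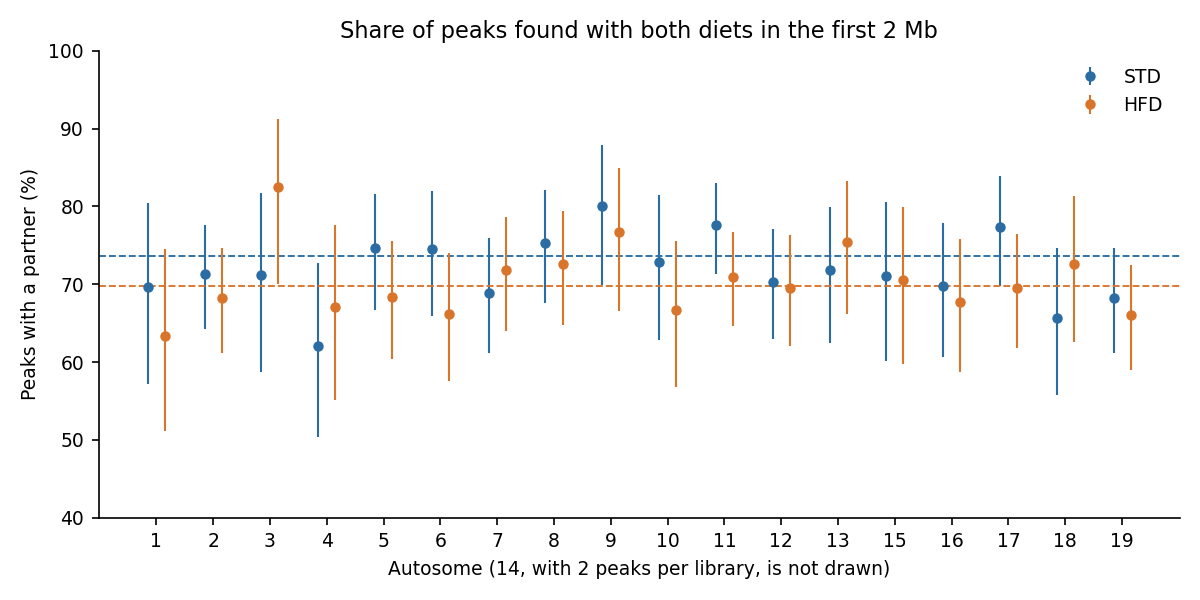
Percentage of peaks from 3 to 5 Mb that overlap a peak of the other diet, by autosome, for STD (blue) and HFD (orange), with exact 95% binomial intervals. Dashed lines give the shares over all autosomal peaks, 73.6% and 69.8%. The STD interval of chromosome 4 and the HFD interval of chromosome 3 leave out their dashed line, and the vertical axis starts at 40%.

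By chromosome, leaving out the 2 shared peaks of chromosome 14, the partner share ran from 62.0% to 80% with STD and from 63.4% to 82.5% with HFD. The share was higher than from 5 to 9 Mb on 9 autosomes and lower on 10 with STD, and higher on 10 and lower on 9 with HFD. The interval left out the autosomal share once in each library. On chromosome 4, 49 of 79 STD peaks had a partner (62.0%, 50.4 to 72.7). On chromosome 3, 47 of 57 HFD peaks had a partner (82.5%, 70.09 to 91.3), as did 47 of 66 STD peaks (71.2%, 58.7 to 81.7). With 19 intervals per library at 95%, counting error alone can place some outside.

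The share of peaks found with both diets was higher in the first 100 kb than in the rest of the 2 Mb. There, 76 of 93 STD peaks (81.7%, 72.4 to 89.0) and 76 of 92 HFD peaks (82.6%, 73.3 to 89.7) had a partner. From 3.1 to 5 Mb the shares were 71.7% (69.8 to 73.6) and 69.4% (67.4 to 71.3), so the intervals overlap with STD and are apart with HFD. The dense borders held many of the shared peaks: on chromosome 11, 27 of 28 STD and 27 of 29 HFD peaks had a partner, and on chromosome 9, 14 of 15 and 14 of 17. These chromosomes also held 46.2% of the STD and 50% of the HFD peaks of the first 100 kb. On the other 17 autosomes 35 peaks of each list had a partner. The shares there were 70.0% (55.4 to 82.1) and 76.1% (61.2 to 87.4), and both intervals include the autosomal background. Width moved with this result. In both lists the share rose with width, and from 3 to 5 Mb a partner was found for 94.3% (STD) and 93.8% (HFD) of those exceeding the minimum width by over 200 bp. Such peaks made up 31.2% of the STD and 30.4% of the HFD peaks of the first 100 kb, but 14.5% and 14.3% from 3 to 5 Mb. Within this width class the partner share of the first 100 kb was 96.6% (82.2 to 99.9) with STD and 96.4% (81.7 to 99.9) with HFD, intervals that include the values for 3 to 5 Mb. This could hardly show a higher share at the border. The class held 29 STD and 28 HFD border peaks, the values for 3 to 5 Mb include these peaks, and they are already near the maximum. The narrower classes of the first 100 kb held 11 to 25 peaks each and went both ways. In both lists the classes up to 100 bp above the minimum had higher shares than from 3 to 5 Mb. Only the class over 100 and up to 200 bp above it had lower shares. At over 100 and up to 200 bp above the minimum the STD share was 72% (50.6 to 87.9), against 85.8% from 3 to 5 Mb. At 51 to 100 bp it was 93.75% (69.8 to 99.8), against 79.4%. Among the narrowest HFD peaks, up to 20 bp above the minimum, it was 64.3% (35.1 to 87.2), against 41.9%. The part of width in the border share was not tested further.

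Peaks found with 1 diet only were narrow. In the proximal ends 640 STD and 715 HFD peaks had no partner, 27.9% and 30.1%, against an autosomal background of 26.4% and 30.2%. Their median width was 288 bp (STD) and 280 bp (HFD), whereas peaks with a partner had medians of 353.5 and 346 bp. From 5 to 9 Mb these medians were nearly the same, at 290 and 280 bp without and 353 and 345 bp with a partner. The 35 STD and 32 HFD broad peaks each had a partner, as did 1880 of 1896 (99.2%, STD) and 1651 of 1671 (98.8%, HFD) on all autosomes. The HFD list supplied 52.8% (50.1 to 55.5) of the peaks without a partner, against 54.7% on all autosomes. This direction depended on narrow peaks: when peaks under 300 bp were left out of both lists, the HFD part was 44.7%. Among these unshared peaks, 64 with STD (10%) and 61 with HFD (8.53%) came within 500 bp of a peak called with the other diet, close to the 9.89% and 8.84% from 5 to 9 Mb.

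The widest peaks without a partner were listed by position. With STD they were on chromosome 15 from 4050736 to 4051433 (698 bp), 2.88 kb from the nearest HFD peak, and on chromosome 3 from 3167313 to 3167918 (606 bp), 12.4 kb from it. On chromosome 16 the peak from 4870657 to 4871260 (604 bp) lay 4.29 kb from an HFD peak. On chromosome 12, within the first 100 kb, the peak from 3058265 to 3058843 (579 bp) lay 9.345 kb from an HFD peak. On chromosome 17 the peak from 4174721 to 4175295 (575 bp) lay 20.9 kb from an HFD peak. With HFD the widest was on chromosome 8 from 3290283 to 3290915 (633 bp), 8.23 kb from the nearest STD peak. On chromosome 19 the HFD peak at 3933526 to 3934101 (576 bp) came within 0.366 kb of an STD peak. Chromosome 17 had HFD peaks from 3282507 to 3283065 (559 bp) and from 4926484 to 4927040 (557 bp), 1.08 and 1.48 kb from an STD peak. The last was the HFD peak on chromosome 9 from 3090164 to 3090718 (555 bp), 36.3 kb from an STD peak. None of these places has a replicate.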

How the data were processed

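For each library the authors deposited a BED file of peak positions (4 columns), and other values were not used. The submitters' processing notes name BWA, a read aligner, and the build mm9. How peaks were called and filtered, and whether mice were pooled, is not stated in these sources. Sequencing depth is unknown.

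Positions are printed counting from 1. Peaks were placed by midpoint, and the interval from 5 to 9 Mb excludes 5000000 itself. Tools were Python 3.11.15 with scipy 1.17.1, pandas 2.3.3, numpy 2.4.6 and matplotlib 3.10.9. bedtools 2.31.1 gave identical partner numbers. Densities have exact Poisson intervals, shares Clopper-Pearson intervals, ratios exact conditional binomial intervals and medians order-statistic intervals, at 95%. Ranks by bin use a fixed grid of 100 kb. The functions were tested on simulated lists. Named regions are the 10 widest peaks, the 5 widest without a partner, the broad border peaks, the first peaks and the 4 densest and 4 sparsest chromosomes, the clearest of them in full. The covered length and the chromosome 7 run were chosen after their values were seen. The regions and rules were chosen with earlier results of these data known. No genome of build mm9 was used, so no sequence is printed and RefSeq gene order (GRCm38.p6) serves for names only.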

Additional observations from a re-analysis of the deposited data

How the results depend on the processing

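Of 71 recomputed values, 45 stayed within the counting interval of the reported value, 24 moved beyond it and 2 changed direction. A change of direction was counted only where the interval of the reported value left out no difference. HFD over STD numbers, whose reported interval includes 1, fell below 1 in the settings given below and are not counted as such a change. The HFD part of the peaks without a partner, 52.8%, fell to 44.7% for peaks of at least 300 bp and to 48.3% when the 123994 widest peaks of each list were kept (75% of the STD list). Under the peak width limit of 300 bp, which removes more of the HFD list, HFD over STD numbers gave 0.939 (0.873 to 1.01), density was 40.7 (STD) and 38.2 (HFD) peaks per Mb, and the partner share was 67.4% and 71.9%. With equal numbers, HFD over STD numbers gave 0.982 (0.917 to 1.05), density was 44.9 and 44.1 and the STD partner share 69.6%. For the first 1 Mb, density was 57.3 and 58.7, the ratio to 5 to 9 Mb 1.03 and 1.02, and the HFD median width 329 bp. That ratio stayed above 1 in all 22 recomputed values (1.02 to 1.15). With single chromosomes left out in turn, the lowest values were 1.048 (STD) and 1.051 (HFD), and the highest STD value was 1.149. No intervals were computed for these recomputed ratios, so whether they exclude 1 is not known. Partner shares were 69.9% and 67.6% with reciprocal 50% overlap, and 74.9% and 72.5% within 500 bp. Broad peaks made up 5.36% and 5.05% at 600 bp, 0.479% and 0.632% at 1000 bp, and 6.52% and 5.23% after merging gaps of up to 500 bp. The broad share at the border was 10.6% and 11.5% in the first 50 kb and 4.88% and 6.60% in the first 200 kb. Leaving out chromosomes, alone or 9 and 11 together, was added after seeing the data. No paired analysis was possible because a diet is represented by a single library, which also means that none could be left out. What the absence of a peak can show is limited by the unknown depth.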

Other observations

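Chromosome X, outside the autosomal comparisons, held 2 STD and 3 HFD peaks from 3 to 5 Mb, or 1 (0.121 to 3.61) and 1.5 (0.309 to 4.38) per Mb. Of these, 2 in each list had a partner. From 5 to 9 Mb X held 57 (STD) and 69 (HFD), which is 14.25 and 17.25 per Mb. Its first peak lay 16.7 kb from the gap border in both libraries, and the widest peak of the 2 Mb was 810 bp with STD and 786 bp with HFD.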
